A study of Mus musculus with 18 samples.

Results

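The 6 genes described here encode enzymes that modify collagen inside the cell: the lysyl hydroxylases Plod1, Plod2 and Plod3, the prolyl hydroxylase subunits P4ha1 and P4ha2, and the collagen galactosyltransferase Colgalt1. They are 6 of 47729 gene identifiers in the count tables, and all 6 were among the 15572 genes with enough counts to be tested. They were listed by name around Plod2, which was chosen by its fitted difference between lactating and virgin mice in these same libraries. Their differences between lactating and virgin mice are therefore given as a description with no test, and only the difference between virgin males and virgin females was tested.

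The libraries are bulk RNA-seq of mouse epithelial cells sorted by FACS from the ileum, the last stretch of the small intestine. There were 6 libraries from lactating females at day 7 of lactation, 6 from virgin males and 6 from virgin females. The virgin mice were matched to the lactating ones for age. Lactating females and virgin males differ in sex as well as in lactation, and these cannot be told apart in that comparison. The labels give RM3 as the diet while breeding and RM1 for maintenance and the experiment, and they name no other treatment, genotype or strain. The labels do not say that each library is a separate animal, so p-values cover only the variation among these samples, part of which may be technical. Totals were 34577104 to 49039300 counts per library, and Xist and Ddx3y followed the labelled sex in all 18. Epithelial markers were plentiful, with Epcam at 1504 to 3165 CPM (counts scaled to library size with edgeR's TMM factors). The transcript Gm42418 stood at 29981 CPM in virgin male 6 and 31048 CPM in virgin female 2, against 1230 to 4477 CPM in the other libraries.

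Collagen chains are modified in the endoplasmic reticulum before they fold into a triple helix. Prolyl 4-hydroxylase, built of an alpha subunit (P4ha1 or P4ha2) and the protein disulfide isomerase P4hb, hydroxylates prolines and so makes the helix stable at body temperature. Lysyl hydroxylases hydroxylate lysines, some of which then carry galactose added by Colgalt1, while Plod2 is known for hydroxylating the telopeptides, the chain ends through which collagen fibrils are crosslinked. These hydroxylases use oxygen, iron and 2-oxoglutarate, and Plod2, P4ha1 and P4ha2 are known targets of hypoxia-inducible factor in other cells. Collagen is made in the gut wall mainly by cells of the stroma, and epithelial cells contribute to the basement membrane.

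On GRCm38 the genes lie at chr4:147909753-147936767 (Plod1, ENSMUSG00000019055, minus strand), chr9:92542223-92608428 (Plod2, ENSMUSG00000032374, plus strand), chr5:136987019-136996648 (Plod3, ENSMUSG00000004846, plus strand), chr10:59323296-59373304 (P4ha1, ENSMUSG00000019916, plus strand), chr11:54100095-54131665 (P4ha2, ENSMUSG00000018906, plus strand) and chr8:71610998-71624911 (Colgalt1, ENSMUSG00000034807, plus strand). Promoter windows of 300 bases, 250 before and 50 after the RefSeq start on GRCm38.p6, were found for 5 of the 6 genes, in 6 windows since Colgalt1 had a pair. They were searched on both strands, with overlapping matches counted, for ACGTG and GCGTG, the core letters to which hypoxia-inducible factor can bind, and for TTCNNNGAA, the letters of a STAT element. ACGTG was present in the windows of Plod3, P4ha1 and P4ha2, which are shown for that reason with every ACGTG and GCGTG, or its reverse complement, in capitals.
Plod3, chr5:136986769-136987068, plus strand: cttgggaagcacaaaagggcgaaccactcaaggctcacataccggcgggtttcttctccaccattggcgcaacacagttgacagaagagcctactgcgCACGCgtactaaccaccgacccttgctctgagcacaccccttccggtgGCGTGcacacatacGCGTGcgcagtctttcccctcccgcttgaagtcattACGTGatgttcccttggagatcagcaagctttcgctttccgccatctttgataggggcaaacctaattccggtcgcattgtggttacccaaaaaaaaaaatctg
P4ha1, chr10:59323046-59323345, plus strand: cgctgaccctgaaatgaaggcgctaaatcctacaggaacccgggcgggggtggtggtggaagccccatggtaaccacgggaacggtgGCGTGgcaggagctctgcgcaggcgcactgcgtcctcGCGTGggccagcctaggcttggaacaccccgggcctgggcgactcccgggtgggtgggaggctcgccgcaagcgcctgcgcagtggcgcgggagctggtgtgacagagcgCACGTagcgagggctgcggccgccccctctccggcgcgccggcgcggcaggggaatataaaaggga
P4ha2, chr11:54100674-54100973, plus strand: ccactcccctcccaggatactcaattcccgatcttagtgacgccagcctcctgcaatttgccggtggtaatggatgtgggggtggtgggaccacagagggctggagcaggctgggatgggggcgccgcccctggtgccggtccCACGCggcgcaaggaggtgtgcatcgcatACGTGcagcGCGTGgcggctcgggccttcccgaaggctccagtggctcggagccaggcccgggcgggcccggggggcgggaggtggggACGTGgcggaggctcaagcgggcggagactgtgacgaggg
The Plod3 window had 1 match to ACGTG and 3 to GCGTG, the P4ha1 window 1 and 2, and the P4ha2 window 2 and 2. The windows of Plod1 and Colgalt1 had 0 matches to ACGTG and 2 or 3 to GCGTG, and TTCNNNGAA was in 0 of the 6. Of 32851 mouse promoter windows of the same length, 19.6% hold ACGTG, 32.4% hold GCGTG and 8.30% hold TTCNNNGAA. A match describes letters in the window and is not a binding site.

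Plod2 was high in 5 of the 6 lactating libraries and low everywhere else. Lactating females 1 to 6 had 17.2, 21.2, 0.550, 7.15, 9.11 and 4.45 CPM of Plod2. Virgin males 1 to 6 had 0.586, 0.363, 0.387, 0.828, 0.660 and 0.285 CPM, and virgin females 1 to 6 had 0.503, 1.41, 0.742, 0.713, 1.17 and 0.851 CPM. Lactating female 3 lay inside the range of both virgin groups, and the other lactating libraries lay above every virgin library. The mean was 9.94 ± 7.83 CPM in lactating females, 0.518 ± 0.208 CPM in virgin males and 0.898 ± 0.333 CPM in virgin females (n = 6 each, SD). Without lactating female 3 the lactating mean was 11.8 ± 7.09 CPM (SD, n = 5).

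The spread of Plod2 among lactating libraries was itself wide. The highest lactating library stood 38.6 times above the lowest, and 4.78 times without lactating female 3, against 2.91 times among virgin males and 2.80 times among virgin females. These levels rest on 24 to 1070 reads in lactating females, 11 to 40 in virgin males and 18 to 48 in virgin females, so counting error is a larger part of the spread in the virgin groups. In bulk RNA, fewer cells that express a gene and less RNA per cell cannot be told apart. The fitted log2 fold change of Plod2 was 3.47 for lactating against virgin females (SE 0.56, 11.1-fold) and 4.25 for lactating females against virgin males (SE 0.59, 19.1-fold). Without lactating female 3 the first of these was 3.72.

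**Figure D1:**
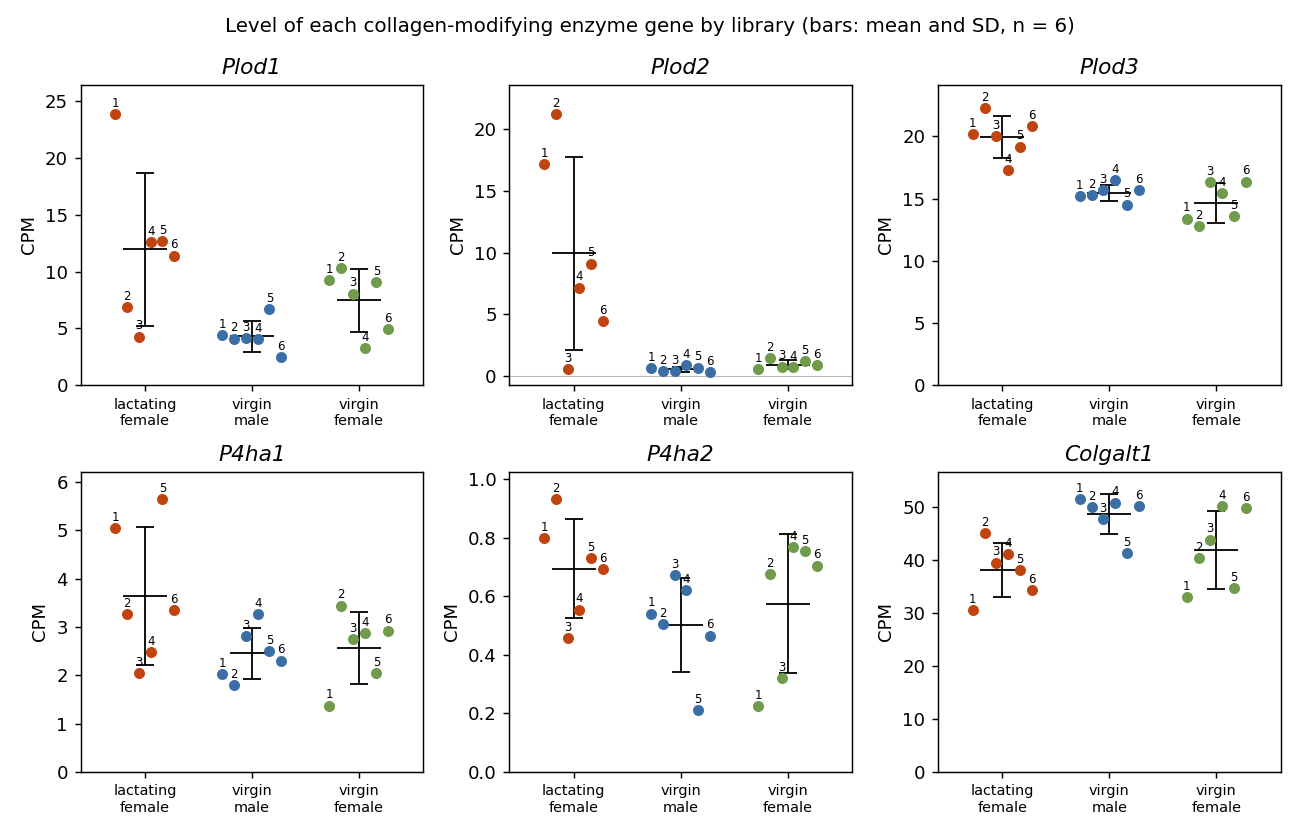
Level in CPM (vertical axes, starting at or just below 0) of each of the 6 enzyme genes in lactating female, virgin male and virgin female libraries, 1 numbered point per library, with bars for the mean and SD of 6 libraries. Plod2 is above 4 CPM in 5 lactating libraries and at 0.550 CPM in lactating female 3, and the lactating libraries of Plod3 lie above all virgin libraries.

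Plod3, the lysyl hydroxylase that also has glycosyltransferase activity, had the smallest spread within groups relative to its level. It had 20.2, 22.3, 20.1, 17.3, 19.2 and 20.8 CPM in lactating females 1 to 6. It had 15.2, 15.3, 15.7, 16.5, 14.5 and 15.7 CPM in virgin males and 13.4, 12.8, 16.3, 15.4, 13.6 and 16.4 CPM in virgin females. All 6 lactating libraries, number 3 included, lay above all 12 virgin libraries. Plod3 averaged 20.0 ± 1.68 CPM in lactating females, 15.5 ± 0.658 CPM in virgin males and 14.7 ± 1.58 CPM in virgin females (n = 6 each, SD). The log2 fold change was 0.45 against virgin females (SE 0.09) and 0.37 against virgin males (SE 0.09).

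Plod3 was the only one of the 6 genes whose lactating libraries did not overlap with the virgin ones, in either comparison. Of all tested genes, 0.148% were higher without overlap in lactating than in virgin females, and 0.873% in lactating females than in virgin males. Plod3 overlaps exons of Znhit1, a gene on the opposite strand that had 28162 counts in all libraries against 12861 for Plod3. Znhit1 averaged 44.9 ± 11.6 CPM in lactating females, 31.6 ± 2.89 CPM in virgin males and in virgin females 35.7 ± 8.31 CPM (n = 6 each, SD). For Znhit1 the log2 fold change was 0.33 against virgin females (SE 0.16, adjusted p = 0.777) and 0.51 against virgin males (SE 0.16, adjusted p = 0.164). Whether the counting used strand is not given in the sources used here, so reads of this neighbour may be mixed with those of Plod3, and its part in the Plod3 difference was not tested.

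Plod1, the lysyl hydroxylase of the helical part of the chain, varied in every group. It had 23.9, 6.88, 4.26, 12.6, 12.7 and 11.4 CPM in lactating females 1 to 6. It had 4.37, 4.10, 4.16, 4.02, 6.72 and 2.46 CPM in virgin males and 9.26, 10.3, 8.07, 3.24, 9.06 and 4.92 CPM in virgin females. The groups overlapped: 4 lactating libraries were above the highest virgin female and 5 above the highest virgin male, with lactating female 3 the lowest of its group. Means were 12.0 ± 6.76 CPM in lactating females, 4.30 ± 1.37 CPM in virgin males and 7.48 ± 2.78 CPM in virgin females (n = 6 each, SD). The log2 fold change was 0.68 against virgin females (SE 0.34) and 1.47 against virgin males (SE 0.35). The first was 0.36 without lactating female 1, and the second was 0.92 when the cell cycle score was added to the fit.

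Together the lysyl hydroxylases were more abundant in lactating females, and their make-up differed too. Per length, as CPM divided by exon length in kilobases (RPKM), Plod1, Plod2 and Plod3 summed to 8.03 ± 2.17 RPKM in lactating females, 4.15 ± 0.184 RPKM in virgin males and 4.51 ± 0.300 RPKM in virgin females (n = 6 each, SD). Plod2 made up 28.5, 39.8, 1.97, 18.9, 21.6 and 11.6% of that sum in lactating females 1 to 6. It made up 1.36 to 3.50% in virgin males and 2.11 to 5.67% in virgin females. Plod3 was the largest of the 3 in all 18 libraries, with 39.9 to 85.8% in lactating females, 74.2 to 89.3% in virgin males and 61.3 to 84.8% in virgin females. In lactating female 2 Plod2 exceeded Plod1, which made up 10.3% there.

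**Figure D2:**
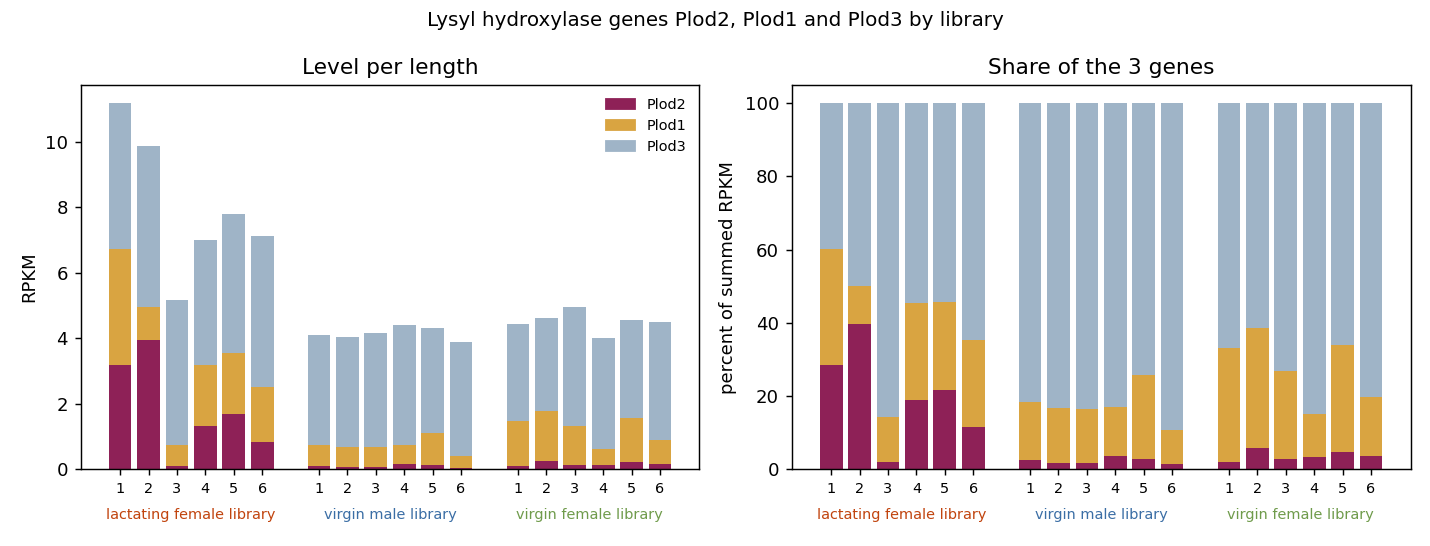
Stacked bars of Plod2, Plod1 and Plod3 in each lactating female, virgin male and virgin female library, as RPKM (left) and as a percent of the summed RPKM of the 3 genes (right). The Plod2 part reaches 39.8% in lactating female 2, is 1.97% in lactating female 3 and stays at or below 5.67% in all virgin libraries.

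The prolyl hydroxylase subunits were low and their groups overlapped. P4ha1 had 5.04, 3.27, 2.04, 2.47, 5.65 and 3.35 CPM in lactating females 1 to 6, against 1.80 to 3.27 CPM in virgin males (median 2.40) and 1.37 to 3.44 CPM in virgin females (median 2.81). P4ha2 had 0.458, 0.712 and 0.933 CPM as lowest, median and highest value in lactating females, 0.212, 0.523 and 0.672 CPM in virgin males and 0.224, 0.691 and 0.768 CPM in virgin females. Lactating females 1 and 5 stood above all virgin libraries for P4ha1, and lactating female 3 was the lowest of its group for both genes. The log2 fold change of P4ha1 was 0.50 against virgin females (SE 0.25) and 0.57 against virgin males (SE 0.25), and that of P4ha2 was 0.27 (SE 0.32) and 0.46 (SE 0.32). P4ha2 rests on 8 to 47 reads per library, which limits what its values can show, and its difference from virgin females was 0.10 without virgin female 1. That of P4ha1 was 0.24 against virgin females and 0.30 against virgin males with voom weights.

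Colgalt1, which adds galactose to hydroxylysine, was the most abundant of the 6 genes per length and leaned the other way. In lactating females it had 30.5, 38.8 and 45.1 CPM as lowest, median and highest level. Virgin males had 41.4, 50.1 and 51.6 CPM and virgin females 32.9, 42.1 and 50.2 CPM on the same measures. The 3 groups overlapped, and 0 of 6 lactating libraries reached the virgin male mean. The log2 fold change was -0.14 against virgin females (SE 0.11) and -0.35 against virgin males (SE 0.12). With the cell cycle score added to the fit the second was -0.23. Over the 18 libraries the order per length was Colgalt1 (9.92 ± 1.60 RPKM), Plod3 (3.69 ± 0.605), Plod1 (1.17 ± 0.764), Plod2 (0.702 ± 1.15), P4ha1 (0.701 ± 0.260) and P4ha2 (0.0947 ± 0.0319; SD, n = 18). Colgalt1 and Plod3 were first and second in every library. Further down, that pooled order does not hold within the groups, since the place of Plod2 differed between them. Plod2 was at 1.84 ± 1.45 RPKM in lactating females, 0.0961 ± 0.0386 RPKM in virgin males and 0.167 ± 0.0617 RPKM in virgin females. Plod1 was at 1.77 ± 0.999, 0.636 ± 0.202 and 1.11 ± 0.411 RPKM in the same groups, and P4ha1 at 0.884 ± 0.347, 0.596 ± 0.130 and 0.624 ± 0.179 RPKM (n = 6 each, SD). In both virgin groups Plod2 thus stood below Plod1 and P4ha1 by more than their spread, and among lactating females the 3 genes overlapped.

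Under edgeR's test at an adjusted p under 0.05, 1 of the 6 genes (Plod2) was past the threshold for lactating against virgin females, where 0.0578% of all tested genes were. For lactating females against virgin males 2 of the 6 (Plod2 and Plod3) were past it, against 0.764% of all genes. These comparisons share the lactating libraries and chose Plod2, so nothing is read from the counts. The first count was 0 without lactating female 1 or without any 1 of the 6 virgin females, and 2 without lactating female 4. The second was 1 without lactating female 1, 5 or 6, without virgin female 3, 5 or 6, and without any 1 of the virgin males.

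Virgin males were compared with virgin females to ask how the sexes differ in mice that have not bred, and the genes were not chosen by this difference. Of the 6 genes 0 were called there, against 0.0835% of all tested genes, and DESeq2 called 0 as well. The libraries of the sexes overlapped for all 6, while 0.43% of all tested genes did not overlap. In edgeR's test 1 of the 6 had an unadjusted p under 0.05. That gene was Plod1, which stood at 4.30 ± 1.37 CPM in virgin males and in virgin females at 7.48 ± 2.78 CPM (n = 6 each, SD). The fitted difference was -0.79 on the log2 scale (SE 0.35, 95% interval -1.47 to -0.11, adjusted p = 0.565), and 0 of 6 male libraries reached the female mean. With the cell cycle score added to the fit the difference of Plod1 was -0.23. Plod2 was at -0.78 (SE 0.57, interval -1.90 to 0.34, adjusted p = 0.599), likewise with 0 of 6 male libraries above the female mean. The intervals of the others ran from -0.09 to 0.24 for Plod3 (adjusted p = 0.720), from -0.57 to 0.43 for P4ha1 (adjusted p = 0.929), from -0.82 to 0.43 for P4ha2 (adjusted p = 0.813) and from -0.01 to 0.44 for Colgalt1 (adjusted p = 0.565). These intervals are wide for every gene but Plod3 and Colgalt1, and a p above the threshold does not show that the sexes were alike.

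**Figure D3:**
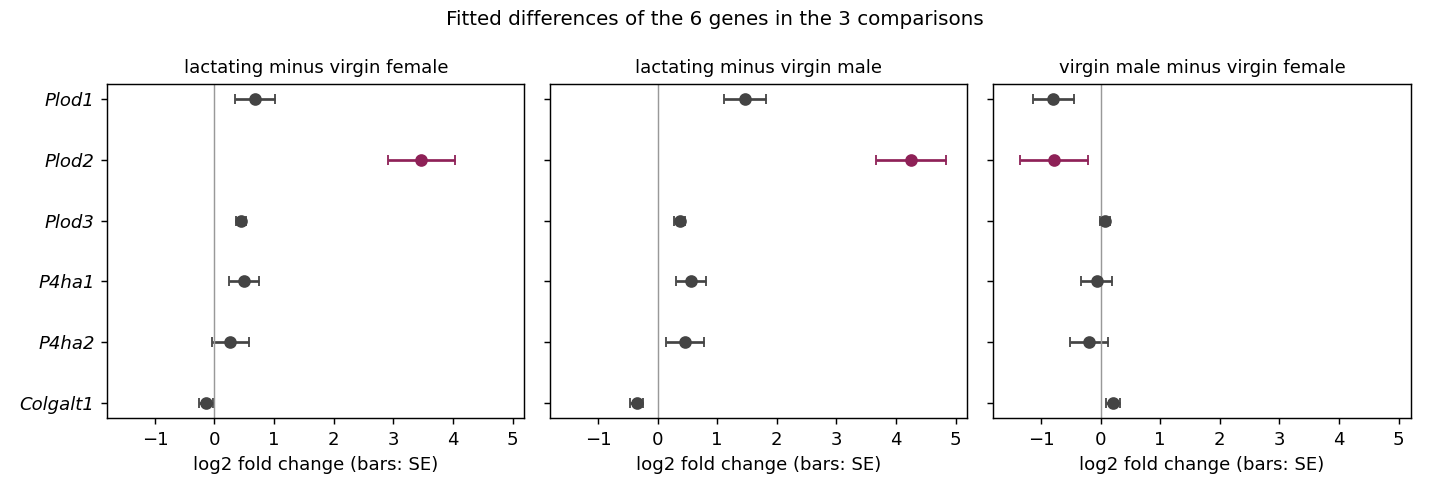
Fitted log2 fold change (horizontal axis, bars for 1 SE) of each enzyme gene for lactating against virgin females, lactating females against virgin males and virgin males against virgin females, Plod2 in colour. Plod2 stands at 3.47, 4.25 and -0.78, and the other genes between -0.79 and 1.47.

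No other gene of the collagen pathway passed edgeR's test. Of 54 listed genes for collagen folding, cleavage, crosslinking and the chains themselves, 16 were abundant enough to test, and edgeR called 0 of 16 in each of the 3 comparisons. In each comparison 1 of the 16 had an unadjusted p under 0.05, and DESeq2 called 1, Col7a1, between lactating females and virgin males. The median log2 fold change of the 16 was 0.13 for lactating against virgin females, 0.07 for lactating females against virgin males and 0.01 for virgin males against virgin females, against 0.00, -0.01 and -0.01 over all tested genes.

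The partners of the enzymes in the endoplasmic reticulum were unevenly present. P4hb, the beta subunit of prolyl hydroxylase and a general protein disulfide isomerase, averaged 1569 CPM over the 18 libraries. Ppib, a prolyl isomerase, averaged 167 CPM, and Mia3, which helps load collagen into transport vesicles, 88.4 CPM. Serpinh1, the chaperone dedicated to collagen, averaged 0.169 CPM and was too low to test. P3h4, a cofactor of lysyl hydroxylation in the helix, was at 0.711 ± 0.0911 CPM in virgin males and in virgin females at 1.22 ± 0.553 CPM (n = 6 each, SD), a log2 fold change of -0.77 (SE 0.27, adjusted p = 0.565). The lysyl oxidases, which form the crosslinks from the modified lysines, averaged at most 0.126 CPM, and Loxl1 had 0 counts in all libraries.

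Among the collagen chains, Col7a1, the anchoring fibril collagen that epithelia make, was the highest. It stood at 2.70 to 5.89 CPM in lactating females, 1.77 to 3.49 CPM in virgin males and 1.68 to 3.87 CPM in virgin females. The groups overlapped, and its log2 fold change was 0.87 against virgin females (SE 0.23, adjusted p = 0.311) and 0.78 against virgin males (SE 0.23, adjusted p = 0.142). All but 1 of the 14 fibrillar and other stromal chains were below the filter, and Col1a1 averaged 0.0545 CPM in lactating females, 0.0182 CPM in virgin males and 0.00305 CPM in virgin females.

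Markers of fibroblasts were examined because such cells express these enzymes strongly. Of 10 markers 3 were measurable: Fbln1 at 55.5 to 329 CPM, Pdgfrb at 4.45 to 13.3 CPM and Vim at 1.76 to 5.37 CPM over the 18 libraries. Summed over all 10, the list stood at 68.3 to 346 CPM in lactating females, 64.2 to 128 CPM in virgin males and 104 to 218 CPM in virgin females. The medians were 144, 103 and 147 CPM in the same order, and lactating female 3 was the lowest of its group. Pdgfrb, a receptor of pericytes and fibroblasts, had a log2 fold change of 0.05 against virgin females (SE 0.22, adjusted p = 0.988) and 0.71 against virgin males (SE 0.23, adjusted p = 0.170). Fbln1, a matrix protein, was at 0.07 (SE 0.31, adjusted p = 0.988) and 0.79 (SE 0.31, adjusted p = 0.246). Vim, an intermediate filament of mesenchymal cells, had 4.05 ± 0.853 CPM in lactating females, 2.22 ± 0.278 CPM in virgin males and in virgin females 2.24 ± 0.331 CPM (n = 6 each, SD). The log2 fold change of Vim was 0.87 against virgin males (SE 0.16, adjusted p = 0.00812) and 0.85 against virgin females (SE 0.16, adjusted p = 0.0506). The first call held in 26 of 26 alternatives, and the second difference was called in 4 of 26, among them DESeq2 and the fit without lactating female 3 (0.93, SE 0.15, adjusted p = 0.0260).

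The other 7 fibroblast markers, which include the defining Col1a1, Col1a2, Col3a1, Dcn and Pdgfra, were each at or below 0.240 CPM in every library, and Lum was at 0 in all. Their sum was 0.0229 to 0.534 CPM in lactating females (median 0.324), 0.0471 to 0.248 CPM in virgin males (median 0.0893) and 0.0366 to 0.187 CPM in virgin females (median 0.129). The ranges of the 3 groups overlapped, and the lowest value, 0.0229 CPM, was that of lactating female 3. A count of 3, taken as the floor for 1 gene, corresponds to 0.0549 to 0.0882 CPM depending on the library. The part of such cells in the Plod2 difference was not tested.

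Markers of enteroendocrine cells, the hormone cells of the gut epithelium, were higher in the lactating libraries where Plod2 was high. Summed over 14 genes they stood at 655, 540, 302, 569, 515 and 643 CPM in lactating females 1 to 6, 246 to 513 CPM in virgin males (median 396) and 319 to 417 CPM in virgin females (median 362). Lactating female 3 lay below every virgin female and inside the range of virgin males, and the other lactating libraries lay above all virgin ones. Among those others the sum did not follow Plod2: lactating female 2 had 540 CPM with 21.2 CPM of Plod2, and lactating female 6 had 643 CPM with 4.45 CPM. Lactating female 3 was also the lowest of its group for summed goblet (4240 CPM) and tuft cell markers (11.4 CPM, against 11.8 to 18.9 CPM). For Paneth cell markers it was not (5548 CPM, against 4239 to 11717 CPM). In each comparison of lactating females with a virgin group 13 of the 14 genes had a log2 fold change above 0. The median was 0.48 against virgin females and 0.49 against virgin males, which also differ in sex. Against virgin females edgeR called 0 of the 14 (6 at an unadjusted p under 0.05, and 3 called by DESeq2). Against virgin males it called 1, Gcg, which encodes glucagon-like peptides, at 0.90 (SE 0.20, adjusted p = 0.0460), and DESeq2 called 3. The call of Gcg held in 10 of 26 alternatives, with an adjusted p of up to 0.114 and log2 fold changes of 0.75 to 1.05. The part of these cells in the Plod2 difference was not tested.

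Hypoxia-inducible genes were listed because Plod2, P4ha1 and P4ha2 belong to that response. Of 22 listed genes without the 6 enzymes, edgeR called 0 for lactating against virgin females (5 at an unadjusted p under 0.05, and 1 called by DESeq2), 1 for lactating females against virgin males (9 at an unadjusted p under 0.05, and 4 called by DESeq2) and 0 for virgin males against virgin females (2 at an unadjusted p under 0.05, and 0 called by DESeq2). The called gene was Car12, a carbonic anhydrase, with 25.0 to 55.5 CPM in lactating females, 20.2 to 28.8 CPM in virgin males and 27.9 to 46.2 CPM in virgin females. Its log2 fold change against virgin males was 0.81 (SE 0.18, adjusted p = 0.0458), a call that was lost without lactating female 1, 4 or 5, virgin female 3 or 5, or any 1 virgin male. Without lactating female 2 the count was 4, with Ankrd37, Higd1a and Vegfa added.

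Ankrd37, a small ankyrin protein induced by hypoxia, had the largest log2 fold change among the listed genes named here. It had 27.5, 5.91, 6.19, 12.6, 48.6 and 22.9 CPM in lactating females 1 to 6, 3.29 to 14.3 CPM in virgin males and 2.45 to 8.08 CPM in virgin females. Lactating female 2, the highest for Plod2, was the lowest of its group for Ankrd37. Its log2 fold change was 1.81 against virgin females (SE 0.48, adjusted p = 0.296) and 1.70 against virgin males (SE 0.48, adjusted p = 0.116). Vegfa, a growth factor of vessels, was at 0.96 against virgin males (SE 0.28, adjusted p = 0.137), and Hif1a, a subunit of the factor itself, at 0.25 (SE 0.16, adjusted p = 0.451). The median of the 22 genes was 0.12 against virgin females and 0.17 against virgin males, and 0 of 9 genes for the factor's subunits and the oxygen-sensing hydroxylases were called by edgeR in any of the 3 comparisons (1 at an unadjusted p under 0.05 for lactating against virgin females, and 0 called by DESeq2).

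The libraries differed in the level of genes of dividing crypt cells and of the villus tip. List scores, the mean log2 CPM of 30 cell cycle and 11 villus tip genes, were set against the level of each enzyme. The hypoxia score used 22 genes. The fibroblast score used only the 3 measurable markers Fbln1, Pdgfrb and Vim, since the other 7, which include Col1a1 and Dcn, were below the filter. The relation was computed for 6 genes and 4 scores, which is 24 relations, with p-values adjusted over them by the Benjamini-Hochberg method. Pooled p-values are given for Plod1, P4ha1, P4ha2 and Colgalt1 only. All 6 lactating libraries stood apart from the virgin ones for Plod3, and 5 of the 6 did for Plod2, which was chosen by that difference. Of the 16 pooled relations of Plod1, P4ha1, P4ha2 and Colgalt1, 8 passed by the Pearson coefficient r, all of them for Plod1 and Colgalt1. By Spearman's rho, P4ha2 with the fibroblast score passed too (rho = 0.552, permutation p = 0.0188, adjusted p = 0.0451). Its r was 0.348 (permutation p = 0.157, adjusted p = 0.272).

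Plod1 was high where villus tip genes were high. The Pearson coefficient r was 0.920 (permutation p = 1e-05, the lowest value 100000 permutations can reach, adjusted p = 0.00012) and Spearman's rho 0.889 (permutation p = 1e-05, adjusted p = 0.00024). Leaving out the 2 libraries whose score was farthest from the median, r was 0.862, and within groups of 6 it was 0.932 in lactating females, 0.936 in virgin males and 0.997 in virgin females. Plod1 dropped with the cell cycle score (r = -0.786, permutation p = 0.00012, adjusted p = 0.00048; rho = -0.759, permutation p = 0.00042, adjusted p = 0.00168). That r was -0.737 without the 2 farthest libraries, and -0.882 in lactating females, -0.415 in virgin males and -0.900 in virgin females.

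Colgalt1 went the opposite way. It rose with the cell cycle score (r = 0.815, permutation p = 8e-05, adjusted p = 0.000384; rho = 0.744, permutation p = 0.00071, adjusted p = 0.00243). Without the 2 farthest libraries r was 0.672, and within groups it was 0.839 in lactating females, 0.694 in virgin males and 0.905 in virgin females. Against the villus tip score it fell (r = -0.755, permutation p = 0.00031, adjusted p = 0.00093; rho = -0.717, permutation p = 0.00125, adjusted p = 0.00375; r = -0.662 without the 2 farthest). Within groups that r was -0.762 in lactating females, -0.531 in virgin males and -0.836 in virgin females.

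Plod1 and Colgalt1 also followed the other 2 scores, which moved with the first 2 in some libraries. Lactating female 1 had the lowest cell cycle score (3.60), the highest villus tip (10.3) and fibroblast scores (4.61), and 5.58 for hypoxia. Virgin female 4 had the lowest hypoxia score (4.95), with 5.26 for cell cycle and 7.74 for villus tip. Lactating female 3 departed from this, with 5.07 for cell cycle and 5.37 for hypoxia. Whether the relations below are separate from the first 2 scores was not tested. Plod1 rose with the hypoxia score (r = 0.775, permutation p = 0.00018, adjusted p = 0.000617; rho = 0.773, permutation p = 0.00023, adjusted p = 0.0011; r = 0.745 without the 2 farthest) and with the fibroblast score (r = 0.863, permutation p = 1e-05, adjusted p = 0.00012; rho = 0.839, permutation p = 8e-05, adjusted p = 0.00064; r = 0.781 without them). Colgalt1 fell with the hypoxia score (r = -0.856, permutation p = 3e-05, adjusted p = 0.00024; rho = -0.909, permutation p = 2e-05, adjusted p = 0.00024; r = -0.840 without them). Its relation to the fibroblast score (r = -0.628, permutation p = 0.00555, adjusted p = 0.0148; rho = -0.600, permutation p = 0.00981, adjusted p = 0.0262) did not pass without those 2 libraries, where r was -0.527 (permutation p = 0.0375, adjusted p = 0.1). With group means subtracted that r was -0.335 (permutation p = 0.226, adjusted p = 0.362).
Within groups, Plod1 had r of 0.542 with the hypoxia score in lactating females, 0.551 in virgin males and 0.964 in virgin females, and 0.835, 0.435 and 0.747 with the fibroblast score in the same groups. Colgalt1 had -0.920, -0.499 and -0.852 with the hypoxia score and -0.239, -0.273 and -0.616 with the fibroblast score.

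Among lactating libraries the r of Plod2 with the villus tip score was 0.420 (exact permutation p = 0.425, n = 6; rho = 0.0857, exact permutation p = 0.919). There, lactating female 2, the highest for Plod2 at 21.2 CPM, had the lowest villus tip score of the lactating libraries (7.92, against 7.97 in lactating female 3 and 9.27 to 10.3 in the others). Lactating females 2 and 3 thus had nearly the same score and the highest and the lowest Plod2 level. With the 3-gene fibroblast score the r of Plod2 was 0.920 in lactating females (exact permutation p = 0.0181, adjusted p = 0.133; rho = 0.714, exact permutation p = 0.136), -0.220 in virgin males and 0.579 in virgin females. Over 18 libraries the r of Plod2 was 0.830 with the fibroblast, 0.548 with the villus tip, 0.346 with the hypoxia and -0.284 with the cell cycle score. These values carry the lactation difference that chose Plod2 and are given without a test. With group means subtracted, r was 0.790 with the fibroblast score (permutation p = 0.0102, adjusted p = 0.0307). That value rests mainly on the lactating libraries, where Plod2 varied most, and does not show a relation in each group. Lactating female 3 was the lowest of them for Plod2 and for this score (3.22, against 3.85 to 4.61 in the others). With group means subtracted, r was 0.393 with the villus tip score (permutation p = 0.242, adjusted p = 0.363). It was -0.127 with the hypoxia score (permutation p = 0.696, adjusted p = 0.759) and -0.208 with the cell cycle score (permutation p = 0.561, adjusted p = 0.641).

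**Figure D4:**
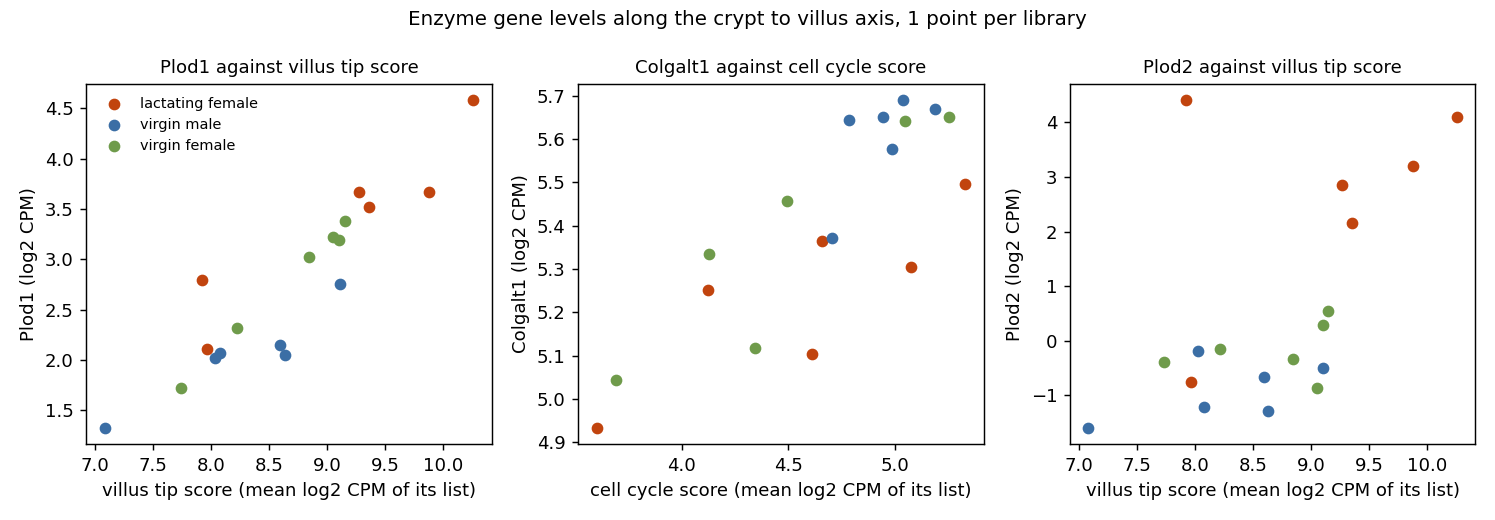
Level of Plod1, Colgalt1 and Plod2 (vertical axes, log2 CPM) against the villus tip, cell cycle and villus tip score (horizontal axes, mean log2 CPM of the list), 1 point per library, coloured by lactating female, virgin male and virgin female. Plod1 rises with the villus tip score (r = 0.920) and Colgalt1 with the cell cycle score (r = 0.815), while lactating females 2 and 3, with villus tip scores of 7.92 and 7.97, lie far apart for Plod2.

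The genes whose pattern over the 18 libraries was most like that of Plod2 were ranked by Pearson's r of log2 CPM, among genes with a mean of at least 1 CPM. The 10 highest were Cyp3a44, Fbxl6, Emp2, Aldh7a1, Nipal3, Syt11, Slc31a1, Cuedc1, S100g and Car12, with r of 0.902 for Cyp3a44 to 0.826 for Car12. Because Plod2 separates lactating from virgin mice, the genes found this way can do so as well, and their differences are not tested here. Cyp3a44, a cytochrome P450, averaged 7.85 ± 6.09 CPM in lactating females, 0.826 ± 0.417 CPM in virgin males and 1.59 ± 0.750 CPM in virgin females (n = 6 each, SD). Slc31a1, the copper importer, averaged 561 ± 207 CPM in lactating females, 189 ± 29.2 CPM in virgin males and 284 ± 64.6 CPM in virgin females (n = 6 each, SD).

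Plod2 itself is lowest among the lactating libraries in number 3, so a ranking by likeness to Plod2 favours genes that are low there too. The count is therefore only a description of what was selected: for 9 of the 10, lactating female 3 was the lowest lactating library. Cyp3a44 had 0.939 CPM there, against 3.79 to 17.8 CPM in the other lactating libraries, and Emp2, a membrane protein of epithelia, 4.03 CPM against 7.68 to 10.6 CPM. S100g, which binds calcium in absorptive cells, was the exception, with 17.2 CPM in lactating female 3 and 6.15 to 202 CPM in the others, all above the highest virgin female at 3.61 CPM.

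Once the mean of each group was subtracted, the 10 most similar genes were others: Hsd3b2, Fhl1, Hsd3b3, Nr0b2, Plscr4, Cytip, Defb37, Retreg1, Lrat and Tfpi2, with r of 0.914 for Hsd3b2 to 0.832 for Tfpi2. Lactating female 3 was the lowest lactating library for 10 of the 10, which again follows from the way they were ranked, since Plod2 lies farthest below its group mean in that library. Hsd3b2 and Hsd3b3, steroid dehydrogenases whose near-identical copies could share reads, had 1.26 and 8.07 CPM in lactating female 3, against 4.16 to 10.4 CPM and 22.1 to 53.6 CPM in the other lactating libraries. Nr0b2, a nuclear receptor induced by bile acids, had 0.390 CPM there against 1.65 to 15.7 CPM. Lrat, which esterifies retinol, had 10.3 CPM against 15.2 to 45.9 CPM.

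**Figure D5:**
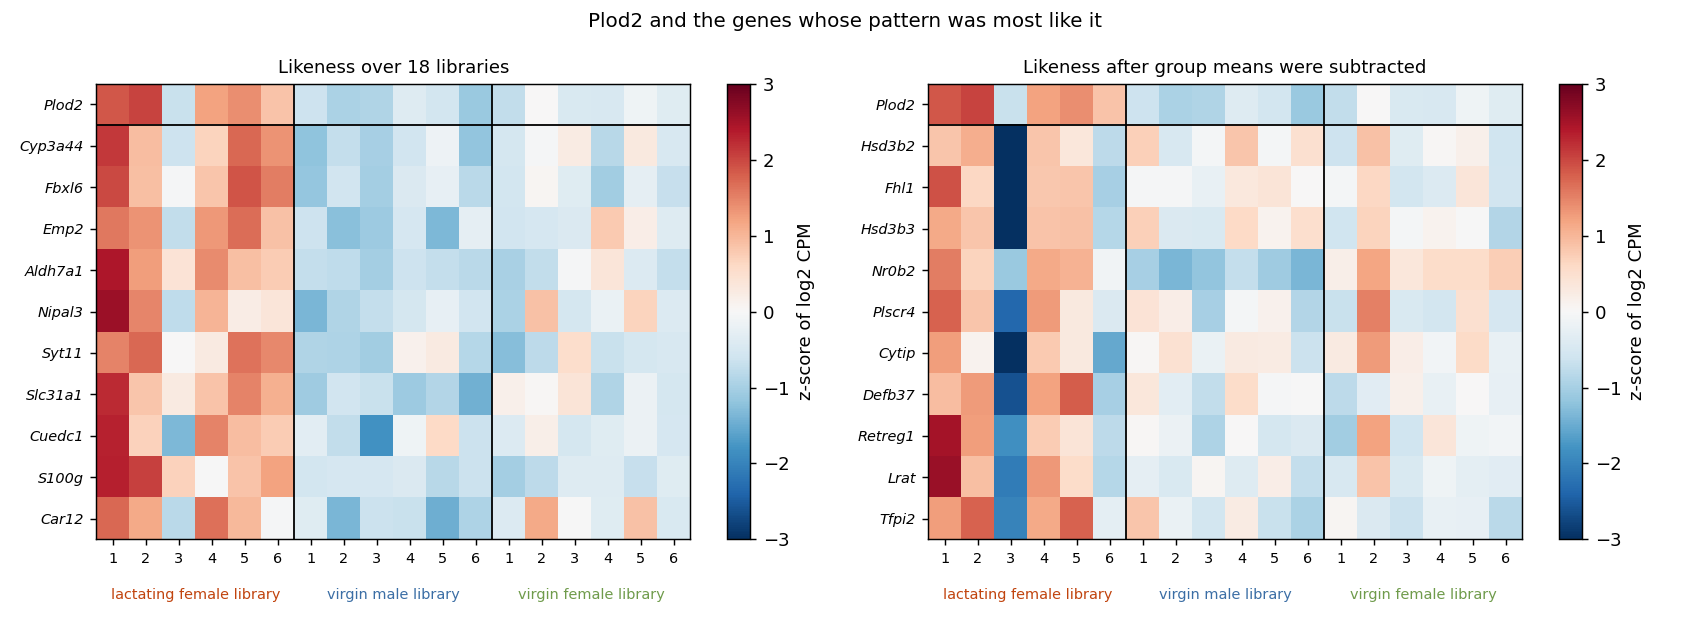
Heat maps of the z-score of log2 CPM (colour, per gene over 18 libraries, with the end colours for values beyond 3 in size) for Plod2 and the 10 genes most like it, over 18 libraries (left) and after group means were subtracted (right). Columns are lactating female, virgin male and virgin female libraries 1 to 6, and lactating female 3, where Plod2 itself is low, is the lowest lactating library for 9 of the 10 genes on the left and 10 of 10 on the right.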

How the data were processed

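The authors deposited 1 table of raw read counts per gene for each of 18 libraries, with 47729 Ensembl identifiers, of which 47310 were named from GENCODE M21 and 419 were not found there. The submitters' processing notes name GRCm38, HISAT2 2.0.4, featureCounts, Subread 2.0.0, FastQC 0.11.5 and DESeq2 1.24.0. The strand setting and the treatment of multi-mapping reads are not given in the sources used here. Per the labels' protocols, libraries were made from polyadenylated RNA with a directional kit.

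Counts were filtered with filterByExpr, scaled by TMM and tested with the quasi-likelihood test of edgeR 4.0.16 in R 4.3.3, with 1 mean per group over all 18 libraries. Benjamini-Hochberg adjustment ran over 15572 genes, with 0.05 as the threshold for a call. The SE is the size of the log2 fold change over the root of F. CPM values are on the TMM scale, RPKM divides them by the union of exons, and log2 CPM has a prior count of 2. Permutation tests were two-sided, with 100000 permutations over 18 libraries and exact enumeration over 6. Intervals come from the SE of the fit by a normal approximation and so include variation among libraries. Floors (3 counts) cover counting error only, and reads carry no molecular identifiers. DESeq2 1.42.0, voom of limma 3.58.1, another scaling, no filter, fewer libraries, a replicate block and a cell cycle covariate were the alternatives. The fit was tested on simulated data. Python 3.11.15, numpy 2.4.6, scipy 1.17.1 and pandas 2.3.3 made the tables.

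The 6 genes and all gene lists were chosen with earlier results of these data known. Named genes were the 6 enzymes, up to 4 tested genes of each list by smallest p in a comparison, the 10 genes most like Plod2 by each measure, and markers of other cell types beside a result they move with. Other genes were chosen after their values were known and are said to be so, or are given as levels of a pathway step or as a check of labels, tissue and overlapping genes. All pairs of libraries differed beyond sampling noise, with a chi-square of at least 64.3 per degree of freedom inside a group and 34.8 across groups.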

Additional observations from a re-analysis of the deposited data

How the results depend on the processing

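Of the 6 enzymes, 1 was called between lactating and virgin females. The number was 2 with DESeq2 and with the cell cycle covariate, and 0 with voom weights, with only the 2 groups compared and without virgin female 2 and virgin male 6 together. Leaving out 1 library at a time gave 0 to 2. Between lactating females and virgin males 2 were called, 3 (Plod1, Plod2 and Plod3) with DESeq2, with voom weights and with the cell cycle covariate, and 1 with only the 2 groups compared and without virgin female 2 and virgin male 6. Leaving out 1 library at a time gave 1 to 2. Plod2 was called in 15 of 26 alternatives against virgin females, with log2 fold changes of 2.61 to 3.72, and in 26 of 26 against virgin males, with 3.39 to 4.50. Since Plod2 was chosen by these comparisons in the same libraries, its calls describe only how the fit depends on the processing and are not a test. Plod3 was called in 3 and 7 of 26, and Plod1 in 0 and 7 of 26. These counts are likewise a description of the processing, and nothing is read from them. In edgeR's fit of all 18 libraries 0.0578% and 0.764% of all tested genes were called in the same comparisons. Between virgin males and virgin females 0 were called in any of the 26. There the difference of Plod2, -0.78, was -0.50 without virgin female 2 and virgin male 6, that of P4ha2, -0.20, was -0.01 with voom weights and -0.36 without virgin female 1, and that of Colgalt1, 0.21, was 0.08 with the cell cycle covariate. The cause of these shifts was not tested.

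The count of hypoxia-inducible genes called was 0 against virgin females, and 1 with DESeq2 and with the cell cycle covariate. It was 1 against virgin males. That number was 4 with DESeq2, 2 with voom weights, 0 with only the 2 groups compared, 0 with the cell cycle covariate and 0 without virgin female 2 and virgin male 6. Leaving out 1 library at a time gave 0 to 4. DESeq2 called 1 of the collagen pathway genes against virgin males, where edgeR called 0. The sign changed for P4ha1 between virgin males and virgin females, where the log2 fold change of -0.07 was 0.049 without virgin female 2 and virgin male 6, 0.032 without virgin female 2 and 0.0080 without virgin male 2, in a range of -0.19 to 0.03 when 1 library at a time was left out.

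Replicate numbers gave no clear pairing of the samples: 7 of 18 same-numbered pairs correlated over 0.1, and 5 of 18 libraries correlated best with their own number. The r of these pairs ran from -0.219 to 0.477, with a median of 0.039. Whether some same-numbered samples shared a batch was not tested. With the replicate number as a block, 0 of the enzymes were called between lactating and virgin females, 1 between lactating females and virgin males, and 0 hypoxia-inducible genes in that comparison. The block called 1, 114 and 11 of all genes for lactating against virgin females, lactating females against virgin males and virgin males against virgin females, where the fit without it called 9, 119 and 13. In the same order DESeq2 called 69, 410 and 30 genes, voom called 2, 217 and 20, and leaving out virgin female 2 with virgin male 6 gave 1, 61 and 11.

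Of 16 pooled relations to scores 8 passed by Pearson's r. After leaving out the 2 farthest libraries 7 passed, as after subtracting group means, an alternative chosen after seeing the data. Within lactating females 0 passed, within virgin males 0 and within virgin females 0, and 6 libraries limit that test. Depth limits P4ha2 and, in virgin mice, Plod2.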

Other observations

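Bmp1, the proteinase that trims procollagen ends, had 92.7, 31.0, 6.97, 78.4, 54.2 and 22.0 CPM in lactating females 1 to 6, 19.0 to 70.3 CPM in virgin males and 24.4 to 77.1 CPM in virgin females, so that lactating female 3 was the lowest of all 18 libraries. Its log2 fold change was 0.24 against virgin females (SE 0.47, adjusted p = 0.970) and 0.48 against virgin males (SE 0.47, adjusted p = 0.581). Summed markers of goblet cells were 4240 CPM in lactating female 3, against 7869 to 18677 CPM in the other lactating libraries. The cell cycle sum of that library, 1272 CPM, and its hypoxia sum, 2523 CPM, lay within the range of the others (489 to 1545 CPM and 1838 to 2616 CPM).

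The other enzymes had neighbours of their own, chosen here after their values were seen. The genes most like Plod1 over the 18 libraries were Ceacam18 (r = 0.964), Castor2 (r = 0.962) and Trim25 (r = 0.953). Those most like Plod3 were S100g (r = 0.906), Socs2, a feedback inhibitor of cytokine signals (r = 0.871), and Map1s (r = 0.865). Those most like Colgalt1 were Trp53, the tumour suppressor p53 (r = 0.951), Trim28, a corepressor (r = 0.950), and Maz (r = 0.944). P4ha1 and P4ha2, the lowest in counts, had highest r values of 0.759 (Cdc42ep3) and 0.781 (Ffar2). These likenesses are descriptions over 18 libraries that differ in their villus tip and cell cycle scores.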
